A study of Mus musculus with 8 samples.

Results

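The enzymes that build nucleotides, and the folate-dependent enzymes that supply them with single carbon units, were followed in C2C12 cells in which Pvt1, a long non-coding RNA, had been silenced. The 34 genes described here were taken by symbol. Every probe carrying one of these names on the array was used, 69 of the 56605 probes that were not controls, on 78 spots. Of these probes, 58 could be tested, and each of the 34 genes had at least 1 tested probe.

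The data came from 8 Agilent mouse arrays read in a single colour, each with Cy3-labelled RNA of a single culture of proliferating C2C12 cells, a line of mouse myoblasts (muscle precursor cells), at passage 10. In the silenced group, 4 cultures received Lipofectamine 2000 with LNA GapmeRs against Pvt1, short antisense oligonucleotides whose target RNA is cut by RNase H. In the control group, 4 cultures received Lipofectamine 2000 with negative control GapmeRs, so all 8 cultures had been transfected. The labels name a pair of GapmeRs, Pvt1_1 and Pvt1_3, without saying whether they were mixed, and call the cultures biological replicates, so that p-values measure the spread between cultures of a single cell line. The GapmeRs are shown because they are the agent that separates the groups, and each has 16 bases, written 5′ to 3′.
Pvt1_1: accgtagtagagttaa
Pvt1_3: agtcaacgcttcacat

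A purine ring is assembled on phosphoribosyl pyrophosphate (PRPP) by a chain of enzymes ending in inosine monophosphate (IMP), from which AMP and GMP branch, while a pyrimidine ring is closed first and then joined to PRPP. Ribonucleotide reductase turns ribonucleotides into the deoxy forms used for DNA, and thymidylate synthase makes the thymine nucleotide. Folate enzymes provide formyl and methylene groups for purines and thymidylate, and salvage enzymes reuse free bases and nucleosides. Proliferating cells such as myoblasts depend on these routes for DNA and RNA synthesis.

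Pvt1 was examined first, as the targeted RNA. Its brightest probe (chr15:62081020-62081079, mouse build mm9) had log2 signals of 9.65, 9.79, 10.31 and 9.70 on control arrays 1 to 4 and of 7.09, 6.69, 7.85 and 6.39 on silenced arrays 1 to 4. No silenced array reached a control array, and the change was -2.86 (SE 0.32, limma adjusted p 0.000682). In this text a change is the mean log2 signal of the 4 silenced arrays minus that of the 4 control arrays, and a call is a limma adjusted p under 0.05 over all 28649 tested probes.

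The share of spots with positive and significant signal was between 58.8% and 62.5% for controls and between 59.8% and 61.0% for silenced arrays 1 to 3, but 51.6% on silenced array 4. Control array 3 correlated least with its own group (mean 0.962), where the other 7 arrays had means of 0.979 to 0.985. Calls that depend on either array are given below with and without it. Of 10 myoblast markers, 8 were well above background on every array of both groups, Myod1 and Des among them, while Fgfr4 and Myf5 were not on any. Myod1 and Des were nevertheless lower in silenced cells (-1.95 and -1.35, limma adjusted p 0.0013 and 0.00374). The median change over all tested probes was -0.19, and 0.02 when arrays were normalised by cyclic loess, so that the changes of Ppat, Cad, Rrm1 and Nme1 are given relative to the median as well. With 8 bulk samples, fewer cells of a type and less RNA per cell cannot be told apart.

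More probes of these genes were lower than higher in silenced cells. Of the 58 tested probes, 17 in 15 genes were lower and 2 in 2 genes were higher, while 39 were not past the threshold. The other 11 probes, of Adss, Atic, Gart, Paics, Cad, Ctps2, Dhodh, Tk1, Mthfd1l and Aprt, had too few values for a test, and 4 of them were positive on no array. The lower probes made up 29.3% of those tested, against 18.4% of all probes on the array, and the higher ones 3.45%, against 4.79%. The median change was -0.33, that is -0.14 relative to the median of all probes. Groups did not overlap for 21 probes that were lower (36.2%, against 22.6% of all probes) and 4 that were higher (6.90%, against 5.61%). The 17 genes with no called probe included both PRPP synthetases, Adsl and Atic of the purine chain, Rrm2 and Tyms. In the plot of changes by role, 5 of the 19 called probes belong to purine synthesis to IMP, 4 to the branches from IMP and 3 to the folate enzymes.

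**Figure D1:**
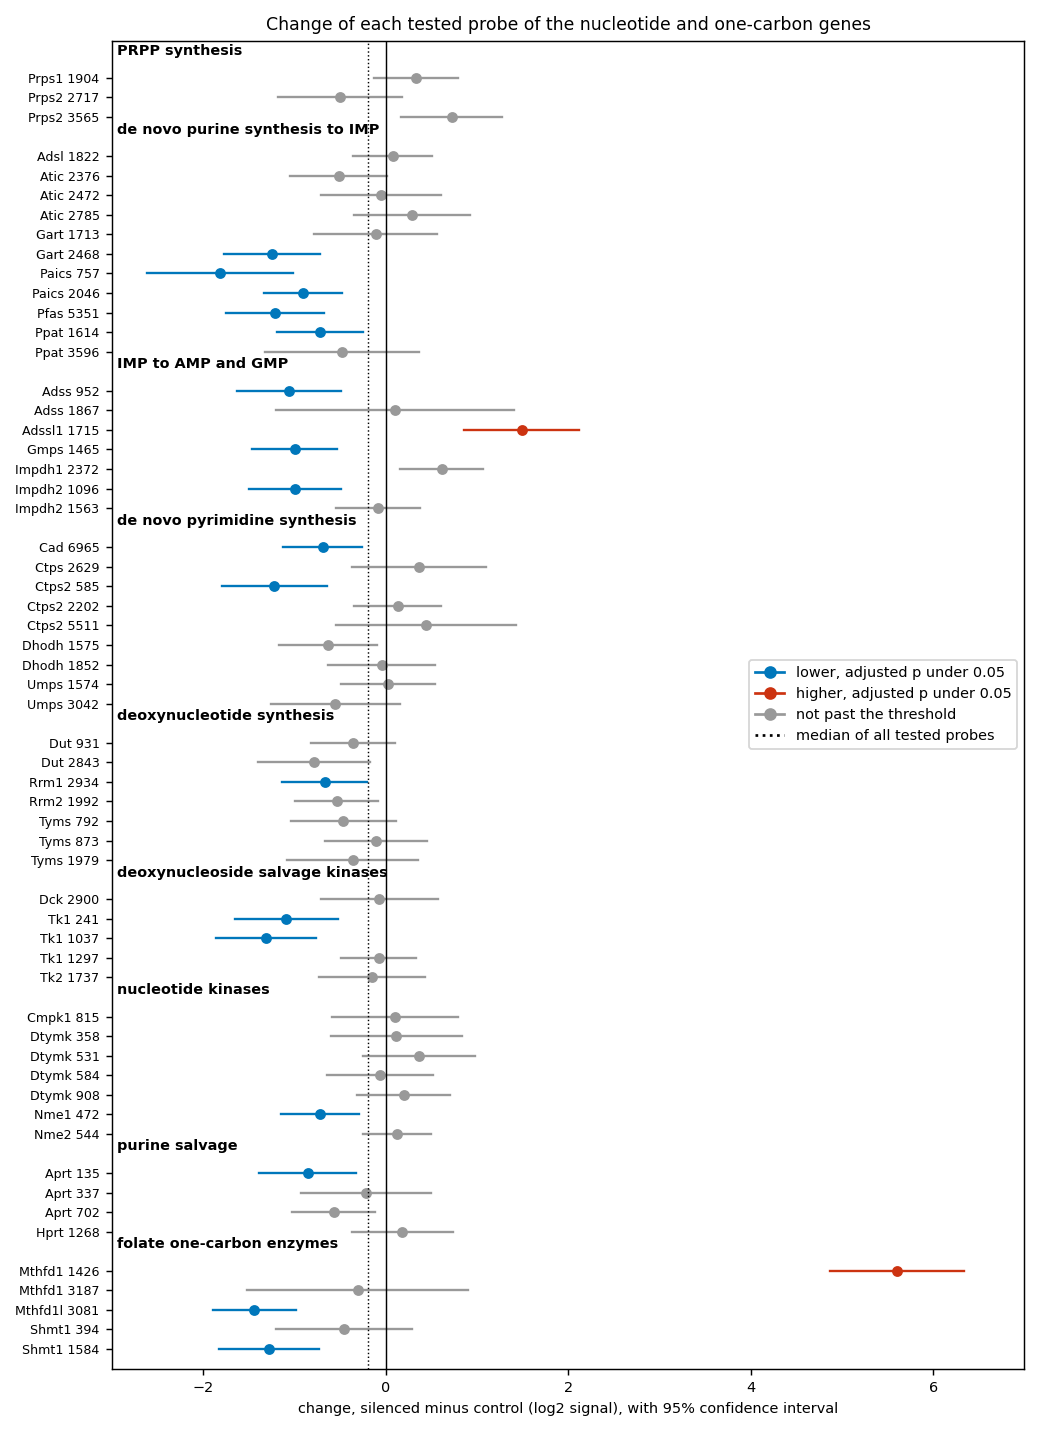
Change in log2 signal (silenced minus control, 4 arrays a group) of each of the 58 tested probes, with its 95% confidence interval, by the role of the gene; numbers beside the symbols are the start of the probe on its transcript, and the dotted line is the median of all tested probes (-0.19). The 17 blue probes lie between -1.82 and -0.67, and the red ones are Adssl1 (1.49) and Mthfd1 at position 1426 (5.60).

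The balance of higher and lower probes depended on the normalisation. Cyclic loess gave 8 higher and 18 lower probes (18.9% and 18.4% of all probes), 8 and 18 came from the authors' series table (20.0% and 19.1%), and a shift of each array to a common 75th percentile gave 13 and 11 (24.7% and 15.2%). The median change of all probes under that shift was 0.16, and that of the 58 probes was 0.08, which is below it as under the other normalisations. Without silenced array 4, 24 of 61 tested probes were called, against 29.9% of all probes, and 18 of them were lower, against 17.8%. Without both silenced array 4 and control array 3 there were 7 and 23 (17.8% and 23.2%). Without control array 2 the lower probes numbered 9 (10.6% of all probes), and without control array 4 they numbered 11 (10.4%). Blocked by the row of the slide, 2 were higher and 8 lower (1.86% and 8.98%). Of the 19 calls, 11 were kept in every fit that left out a single array.

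Proliferation markers were measured beside these genes. For comparison, 18.4% of all tested probes were lower and 4.79% higher, with a median change of -0.19. Of 20 cell cycle genes, 6 were lower and none higher, with a median change of -0.53. Their summed linear signal was 290034 to 334581 in controls and 240235 to 252444 in silenced cells. With slide row as block only Top2a stayed lower (8.98% of all probes were). Under cyclic loess the same 6 were lower and Cdt1 was higher (0.57, limma adjusted p 0.0196). Of the 10 myoblast markers, 4 were lower, Myod1, Des, Cdh15 and Msc, with summed signals of 147171 to 178328 and 108405 to 137819. With slide row as block only Myod1 and Des stayed lower. Myf5, which was well above background on no array, was higher with that block and under cyclic loess. Of 11 tested genes of differentiated muscle, 1 was higher and 2 were lower, with summed signals of 5241 to 7571 and 5348 to 5621. The part of these lists in the changes of the nucleotide genes was not tested.

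Purine synthesis to IMP was the role with the most lower probes and also with the most tested probes. Among 11 tested probes of 6 genes, 5 in 4 genes were lower and none was higher, with a median change of -0.52. Of all probes, 18.4% were lower. The lower genes were Ppat, Gart, Pfas and Paics, and the genes without a called probe were Adsl and Atic. In the other roles the lower probes were 3 of 7 tested for the IMP branches, 2 of 5 for folate enzymes and 2 of 5 for deoxynucleoside salvage. They were 2 of 9 for pyrimidine synthesis, 1 of 7 for deoxynucleotides and 1 of 7 for nucleotide kinases. Purine salvage had 1 of 4 and PRPP synthesis 0 of 3.

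Paics joins carboxylase and SAICAR synthetase activity in a single protein. Its probe at position 757 of the transcript (chr5:77388474-77390149, mm9, an interval longer than the probe because it crosses an intron) read 10.63, 11.02, 9.74 and 10.89 on control arrays 1 to 4 and 8.69, 9.54, 8.60 and 8.17 on silenced arrays 1 to 4. All silenced values lay below all control values, and silenced array 4 was the lowest. The change was -1.82 (SE 0.36, limma adjusted p 0.00697), a 3.53-fold lower signal. At position 2046 the controls read 14.22, 14.46, 14.64 and 14.47 and the silenced arrays 13.60, 13.73, 13.48 and 13.36. This probe changed by -0.91 (SE 0.19, limma adjusted p 0.00904), again without overlap. Calls for both probes were kept in every fit with 1 array left out, but the second was lost with arrays at a common 75th percentile (change -0.33) and with slide row as block (-0.90, limma adjusted p 0.0552). A dim Paics probe at position 455, well above background on 1 silenced array alone, had values on 3 control and 2 silenced arrays and was not tested. Without silenced array 4 it entered the fit on those values and was past the threshold in the higher direction (limma adjusted p 0.03), with no fold given, as no control array measured it above background.

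The Paics probe at position 757 is shown because it had the largest fall among the members, 5′ to 3′.
Paics 757: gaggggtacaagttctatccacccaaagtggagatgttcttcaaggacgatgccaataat

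Pfas makes the amidine intermediate of the chain. Its single probe read 10.40, 10.91, 10.83 and 10.82 on control arrays and 9.64, 9.57, 9.89 and 9.00 on silenced arrays. The groups stood well apart, with a change of -1.22 (SE 0.24, limma adjusted p 0.00685). Gart carries several activities of the route, including a step that uses formyl-folate. Its probe at position 2468 read 11.15, 11.52, 11.69 and 11.46 in controls and 10.24, 10.70, 10.00 and 9.89 in silenced cells. It fell, with a change of -1.25 (SE 0.23, limma adjusted p 0.0056). A further Gart probe, designed on a shorter transcript and holding a polyadenylation signal, read 9.78, 10.05, 10.64 and 9.98 on control arrays and 10.21, 10.02, 10.48 and 9.27 on silenced arrays. Those values overlapped, and the change was -0.11 (-0.78 to 0.56, 95% interval, limma adjusted p 0.828). Gart is known to give a short transcript that ends at an early polyadenylation site. Another Gart probe, on the opposite strand, was positive and significant on 3 arrays and was not tested.

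Ppat catalyses the committed step of the purine chain. At position 1614 the controls read 10.71, 10.94, 11.19 and 10.83 and the silenced arrays 10.34, 10.32, 10.32 and 9.80. The groups did not overlap, and the change was -0.72 (SE 0.21, limma adjusted p 0.0346), or -0.53 relative to the median of all probes. This call was lost when any array other than silenced array 4 was left out (limma adjusted p 0.0505 to 0.0977), with the 75th percentile shift (-0.43) and with slide row as block (-0.65). At position 3596 the controls read 10.37, 10.33, 9.05 and 10.43, with control array 3 far below the others, and the silenced arrays 9.70, 9.69, 10.08 and 8.78. The change there was -0.48 (SE 0.38, limma adjusted p 0.393), -0.81 without control array 3 (limma adjusted p 0.0799), and -0.55 without that array and silenced array 4 (limma adjusted p 0.033).

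**Figure D2:**
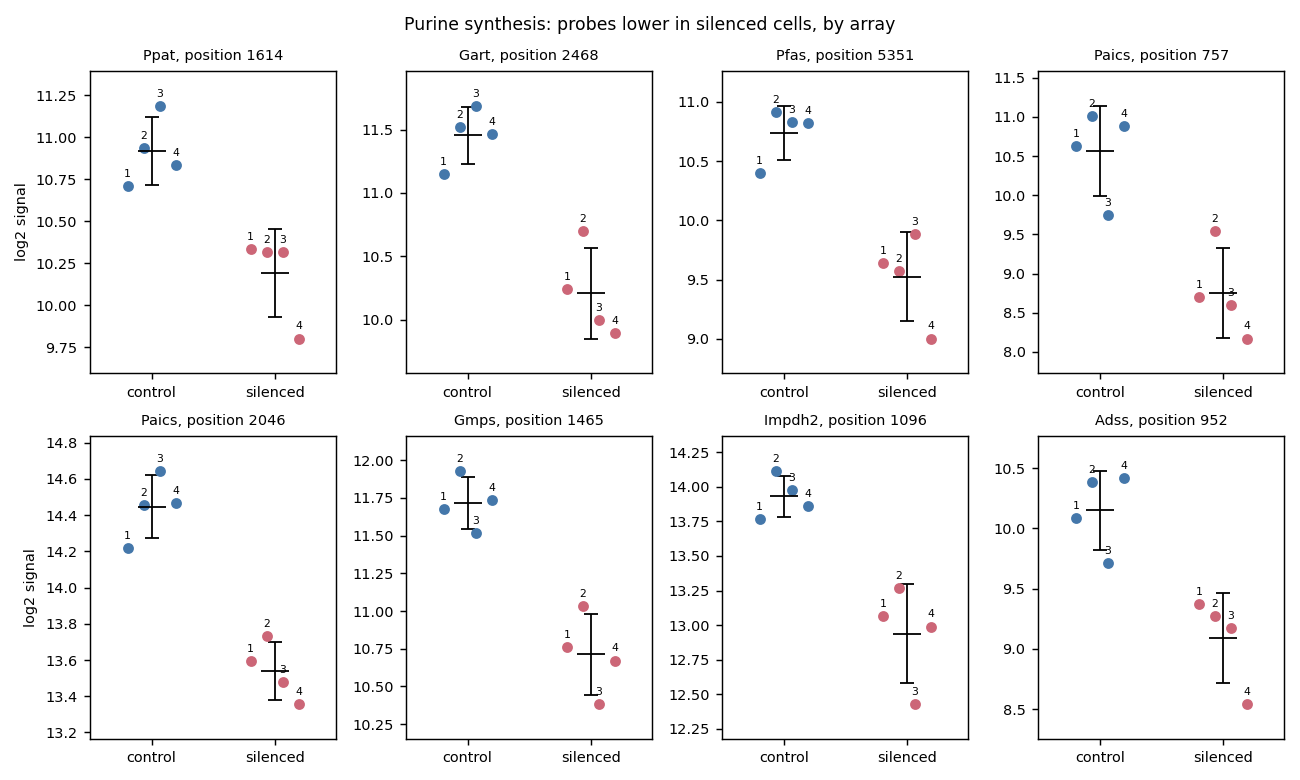
Log2 signal of 8 purine synthesis probes on the control (blue) and silenced (red) arrays, each point an array with its replicate number, with the mean and SD of 4; each panel has its own axis. In every panel the 4 silenced arrays lie below the 4 control arrays.

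Paics and Ppat are neighbours on opposite strands, and their promoters are shown because both genes had lower probes. In the RefSeq table (GRCm38) their start sites on chromosome 5 are 276 bases apart, that of Ppat lying downstream of that of Paics, so that the 5′ ends overlap. Each line gives 250 bases before to 50 after a start site, read on the strand of the gene. Capitals mark matches to an E-box (CACGTG) in Paics and to an E2F-type motif (TTTCCCGC, here on the other strand) in Ppat.
Paics promoter, chr5:76951052-76951351, plus strand: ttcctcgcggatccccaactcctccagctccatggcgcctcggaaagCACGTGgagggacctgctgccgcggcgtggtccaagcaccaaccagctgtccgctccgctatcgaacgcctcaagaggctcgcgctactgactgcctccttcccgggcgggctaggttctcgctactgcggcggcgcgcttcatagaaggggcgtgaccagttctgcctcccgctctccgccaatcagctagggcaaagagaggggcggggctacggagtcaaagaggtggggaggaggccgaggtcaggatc
Ppat promoter, chr5:76951529-76951828, minus strand: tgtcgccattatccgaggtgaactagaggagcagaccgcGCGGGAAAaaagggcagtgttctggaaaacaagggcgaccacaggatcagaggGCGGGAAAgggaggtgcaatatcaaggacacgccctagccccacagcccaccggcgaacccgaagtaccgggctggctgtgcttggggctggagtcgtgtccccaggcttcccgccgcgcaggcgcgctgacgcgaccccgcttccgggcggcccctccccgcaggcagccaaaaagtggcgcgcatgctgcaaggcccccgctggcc

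Promoters of 32 of the 34 genes were in the table, in 38 entries, all but Pfas and Dhodh. The E-box, a site bound by MYC and related factors, was found on either strand in 7 of 38 (18.4%), against 7.15% of all 32851 promoters of the same length. It occurred for Atic, Dtymk, Impdh2, Nme1, Paics and Tyms, of which Impdh2, Nme1 and Paics had a lower probe and Atic, Dtymk and Tyms had no called probe. E2F-type letters (TTTGGCGC, TTTCCCGC or TTTCGCGC, both strands) were found in 2 of 38 (5.26%, against 1.84% of all), those of Ppat and Prps2. The letters TGATGCAA, an ATF4-type element, were in none of the 38 and in 0.895% of all. The motifs were searched separately, none contains another, and a match is a description of letters only.

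Adsl and Atic, which act late in the purine chain, had no called probe. The change was 0.08 for the Adsl probe and, for the 3 tested Atic probes, -0.52, -0.06 and 0.29. Without control array 3 the Atic probe at position 2376 was lower (-0.71, limma adjusted p 0.0379), and the one at position 2785 was higher without silenced array 4 (0.56, limma adjusted p 0.0473) and, over all 8 arrays, under cyclic loess (0.59, limma adjusted p 0.00588).

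Both branches from IMP held lower probes, 3 of 7 tested, and 1 higher probe. Gmps, which makes GMP from XMP, read 11.68, 11.93, 11.51 and 11.74 on control arrays and 10.76, 11.04, 10.38 and 10.67 on silenced arrays. The groups did not overlap and the change was -1.0008 (SE 0.21, limma adjusted p 0.00862). Impdh2 catalyses the rate-limiting step toward GMP. At position 1096 it read 13.77, 14.11, 13.98 and 13.86 in controls and 13.07, 13.27, 12.43 and 12.99 in silenced cells, a change of -0.99 (SE 0.23, limma adjusted p 0.0125). At position 1563, close to the 3′ end, it read 14.08, 14.42, 14.65 and 14.42 in controls and 14.36, 14.27, 14.53 and 14.05 in silenced cells. These overlapped, with a change of -0.09 (-0.55 to 0.37, 95% interval). The call at position 1096 was lost with the 75th percentile shift (-0.44), without masking of dim spots (-0.82), with slide row as block (-0.93, limma adjusted p 0.0728) and with the methods' t-test after Benjamini-Hochberg adjustment.

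Impdh1, the other IMP dehydrogenase, had a positive change that was not past the threshold (0.61, limma adjusted p 0.0553), although its groups did not overlap. It was higher under cyclic loess (0.80, limma adjusted p 0.0014) and without silenced array 4 (0.71, limma adjusted p 0.0165).

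The AMP branch has a pair of paralogous adenylosuccinate synthetases. The Adssl1 probe was higher, while Adss was lower at position 952 and not past the threshold at position 1867. Adssl1, the muscle form, read 9.91, 10.09, 10.81 and 10.26 on control arrays 1 to 4 and 11.79, 11.56, 12.34 and 11.34 on silenced arrays 1 to 4. Every silenced array was above every control array, and the change was 1.49 (SE 0.28, limma adjusted p 0.00571), a 2.8-fold higher signal. The call was kept under each alternative run for this probe. Adss, the form found in most tissues, read 10.09, 10.38, 9.71 and 10.42 on control arrays and 9.37, 9.27, 9.17 and 8.54 on silenced arrays at position 952. This probe fell, with a change of -1.06 (SE 0.26, limma adjusted p 0.0161), a call lost without control array 2 or 4 (limma adjusted p 0.0586 and 0.0608) and with slide row as block (limma adjusted p 0.0702). At position 1867, on another transcript, the controls read 12.02, 12.08, 9.29 and 12.21 and the silenced arrays 11.64, 11.73, 11.40 and 11.25. Control array 3 was far below every other array there, and the change was 0.10 with it and -0.60 without it (limma adjusted p 0.923 and 0.0636). Leaving out silenced array 4 too gave -0.51, which was past the threshold (limma adjusted p 0.0364). Another Adss probe had no array well above background.

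PRPP synthetases make the PRPP used in purine and pyrimidine synthesis and in the salvage of bases. Prps1 read 12.33, 12.62, 12.18 and 12.41 on control arrays and 12.74, 12.81, 12.94 and 12.36 on silenced arrays, with a change of 0.33 (-0.13 to 0.79, 95% interval, limma adjusted p 0.283). Silenced array 4 lay among the controls. Under cyclic loess Prps1 was higher (0.51, limma adjusted p 0.0144), as it was with the 75th percentile shift (0.80), the authors' table (0.48) and no masking (0.49). Prps2 at position 2717 read 9.41, 9.67, 9.45 and 9.59 in controls and 9.19, 9.45, 9.37 and 8.08 in silenced cells, and at position 3565 it read 10.41, 10.65, 10.39 and 10.48 in controls and 11.29, 10.84, 11.80 and 10.88 in silenced cells. Its probes had changes of opposite sign, -0.51 (limma adjusted p 0.261) and 0.72 (limma adjusted p 0.0612), and the former was -0.20 without silenced array 4. The probe at position 3565 did not overlap between groups and was past the threshold under cyclic loess (0.88) and without silenced array 4 (0.84, limma adjusted p 0.0311). It was also past it with the 75th percentile shift, normexp, the series table, no masking and a trended robust prior.

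Pyrimidine synthesis had 2 lower probes of 9 tested, in 2 of 5 genes, where 18.4% of all probes were lower. Cad, the large enzyme of the opening steps, read 13.17, 13.36, 13.65 and 13.31 on control arrays and 12.70, 12.89, 12.56 and 12.57 on silenced arrays. There was no overlap, and the change was -0.69 (SE 0.19, limma adjusted p 0.0295), or -0.50 relative to the median. The call was lost without control array 2, 3 or 4 or silenced array 1 or 3 (limma adjusted p 0.053 to 0.0859), with slide row as block (-0.66) and with the 75th percentile shift (-0.19). The Dhodh probes had changes of -0.63 (limma adjusted p 0.0861) and -0.05 and those of Umps 0.02 and -0.55, none past the threshold, the last of them -0.23 without silenced array 4. Ctps, which aminates UTP, had a change of 0.36 (limma adjusted p 0.465), which was 0.05 without control array 3, the lowest of the 8 arrays there.

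Ctps2, a relative of Ctps, had a single well measured probe. At position 2202 it read 11.04, 11.45, 11.73 and 11.30 on control arrays and 11.51, 11.59, 11.67 and 11.26 on silenced arrays. The groups overlapped and the change was 0.13 (-0.35 to 0.60, 95% interval). At position 585 the controls read 6.06, 6.14 and 5.72 on arrays 1, 2 and 4, with no value on array 3, and the silenced arrays 4.63, 4.35, 4.93 and 5.10. No array had that probe well above background, so its call (limma adjusted p 0.0104) carries no fold, and it was lost without control array 2 (limma adjusted p 0.0523) and under cyclic loess (limma adjusted p 0.0627), the percentile shift, normexp, the series table and no masking. At position 5511, well above background on 1 silenced array alone, the controls read 4.89, 4.85, 6.19 and 5.03 and the silenced arrays 5.79, 5.59, 6.68 and 4.66, and no fold is given. Its groups overlapped and it was not past the threshold (limma adjusted p 0.514), except in the higher direction without both silenced array 4 and control array 3 (limma adjusted p 0.0191).

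For deoxynucleotides, 1 of 7 tested probes was lower, and all 7 changes lay between -0.79 and -0.10. Rrm1, the large subunit of ribonucleotide reductase, read 13.41, 13.65, 14.09 and 13.58 on control arrays and 13.07, 13.12, 13.04 and 12.80 on silenced arrays. These did not overlap, and the change was -0.67 (SE 0.21, limma adjusted p 0.0434), or -0.48 relative to the median. The call was lost when any array other than silenced array 4 was left out (limma adjusted p 0.0518 to 0.107), with slide row as block (-0.62), with the 75th percentile shift (-0.13), without masking (-0.50) and with the methods' t-test after Benjamini-Hochberg adjustment. Rrm2, the small subunit made in S phase, read 15.65, 15.55, 15.68 and 15.59 in controls and 15.15, 15.05, 15.39 and 14.70 in silenced cells. Again no silenced array reached a control, yet the change of -0.54 was not past the threshold (limma adjusted p 0.0824). Under cyclic loess it was (-0.41, limma adjusted p 0.0279), as it was with normexp, the series table, no masking and a trended robust prior.

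Thymidylate synthase, Tyms, had no called probe among 3. At position 792 the controls read 13.09, 13.10, 13.68 and 13.23 and the silenced arrays 12.93, 12.97, 13.14 and 12.19. At position 873 they read 13.23, 13.35, 13.75 and 13.38 in controls and 13.38, 13.23, 13.84 and 12.83 in silenced cells. The groups overlapped in both, with changes of -0.47 (-1.05 to 0.11, 95% interval) and -0.10 (-0.66 to 0.46, 95% interval), or -0.26 and 0.06 without silenced array 4. On another transcript of the gene the controls read 9.76, 9.59, 10.69 and 9.91 and the silenced arrays 9.88, 9.66, 10.06 and 8.91, a change of -0.36 (limma adjusted p 0.457), and silenced array 4 was the lowest of all 8. Without that array the change was -0.13, and without control array 3 it was -0.13. Dut, which removes dUTP, had changes of -0.36 and -0.79 (limma adjusted p 0.241 and 0.0641), both without overlap. The first was -0.21 without silenced array 4, and the second was lower without that array (-0.53, limma adjusted p 0.0399) and under cyclic loess (-0.43, limma adjusted p 0.0216).

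Among the kinases that salvage deoxynucleosides, Tk1 alone had lower probes. Tk1 phosphorylates thymidine in the cytosol of dividing cells. At position 1037 the controls read 14.23, 14.45, 14.85 and 14.55 and the silenced arrays 13.41, 13.58, 12.70 and 13.13. It fell, with a change of -1.31 (SE 0.25, limma adjusted p 0.00547). At position 241 of another transcript the controls read 11.49, 11.90, 11.10 and 11.70 and the silenced arrays 10.60, 10.87, 10.24 and 10.11. This was a change of -1.09 (SE 0.25, limma adjusted p 0.0136), lost without control array 2 (limma adjusted p 0.0517) and with slide row as block (limma adjusted p 0.0608). Closest to the 3′ end, at position 1297 of the transcript that holds position 1037, the controls read 13.66, 13.74, 13.84 and 13.83 and the silenced arrays 13.92, 13.75, 13.61 and 13.49. The groups overlapped there, and the change was -0.08 (-0.49 to 0.34, 95% interval). Tk2, the mitochondrial kinase, had a change of -0.15 and Dck, which phosphorylates deoxycytidine, of -0.07, neither past the threshold.

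The nucleotide kinases raise monophosphates and diphosphates to the forms that polymerases use, and 1 of their 7 tested probes was lower. That of Nme1 read 14.49, 14.74, 14.55 and 14.79 on control arrays and 13.97, 14.01, 14.05 and 13.63 on silenced arrays. The groups were apart, with a change of -0.73 (SE 0.19, limma adjusted p 0.0232), -0.53 relative to the median. Leaving out control array 2 or 4 or silenced array 1 ended the call (limma adjusted p 0.0606 to 0.0931), as did the slide row as a block (-0.76) and the 75th percentile shift (-0.15). Its neighbour Nme2, of near-identical sequence, had a change of 0.12 (-0.25 to 0.50, 95% interval). Cmpk1 had a change of 0.10 and the 4 probes of Dtymk, thymidylate kinase, changes of -0.07 to 0.36, none past the threshold. Dtymk probes at positions 358, which lies on the opposite strand, and 531 were higher under cyclic loess (0.50 and 0.74).

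In purine salvage, Aprt recovers adenine and Hprt recovers hypoxanthine and guanine. The Aprt probe at position 135 of its transcript read 11.93, 12.15, 11.50 and 12.22 in controls and 11.34, 11.33, 10.90 and 10.79 in silenced cells. It fell, with a change of -0.86 (SE 0.24, limma adjusted p 0.0282), a call lost without control array 1, 2 or 4 or silenced array 3 (limma adjusted p 0.0617 to 0.0975), with slide row as block (-0.87), without masking and with the methods' t-test after adjustment. The Aprt probe at position 702 of another transcript had a change of -0.57 (limma adjusted p 0.0695), with groups that did not overlap. That at position 337 of a further transcript had one of -0.22, which turned to 0.05 without silenced array 4 and to 0.10 under cyclic loess. The remaining Aprt probe exceeded background clearly in 3 of 4 controls and in no silenced culture, at least 1.07-fold higher in controls, and was not tested. Hprt, often used as a reference gene, had a change of 0.18 (-0.38 to 0.73, 95% interval).

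The largest change of any member was in the folate enzyme Mthfd1, and it was called at 1 of its 2 probes. Mthfd1 is the cytosolic enzyme that interconverts folate-bound carbon units and makes formyl-folate for purines. The probe at position 1426 (chr12:77391995-77392054, mm9, plus strand) read 6.83, 7.38, 6.07 and 7.50 on control arrays 1 to 4 and 12.74, 12.20, 12.86 and 12.39 on silenced arrays 1 to 4. The lowest silenced array stood far above the highest control, and the change was 5.60 (SE 0.33, limma adjusted p 4.44e-05), a 48.5-fold higher signal. Background was clearly exceeded on 3 of 4 control arrays and on all 4 silenced arrays, and the call was kept under each alternative run, with changes of 4.76 to 5.98.

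At position 3187 (chr12:77420671-77420730, mm9) of the same transcript the controls read 14.07, 14.43, 14.51 and 14.29 and the silenced arrays 14.43, 14.37, 15.12 and 12.14. Silenced array 4 was far below the rest and the groups overlapped. The change was -0.31 (-1.52 to 0.90, 95% interval, limma adjusted p 0.725) with that array and 0.32 without it (limma adjusted p 0.333). Within arrays, the probe at 1426 minus that at 3187 differed between groups by 5.91 (exact two-sided permutation p 0.0286, the smallest that 4 against 4 arrays allow, and 0.0753 adjusted over 29 pairs).

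The probe at position 1426 is shown because this change rests on it alone. Of its 60 bases 66.7% were G or C, the highest share among the 58 tested probes, which ranged from 23.3%.
Mthfd1 1426: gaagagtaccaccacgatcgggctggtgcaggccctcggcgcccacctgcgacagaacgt

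The other folate enzymes among the members fell, at 1 probe each. Mthfd1l, which makes formate in mitochondria, read 12.005, 12.24, 12.04 and 12.16 on control arrays and 10.72, 11.03, 10.38 and 10.54 on silenced arrays. Its groups were far apart, with a change of -1.44 (SE 0.20, limma adjusted p 0.00162), a 2.72-fold lower signal, kept under each alternative run. Shmt1, which moves a carbon unit from serine to folate in the cytosol, read 9.07, 9.32, 9.77 and 9.55 in controls and 8.43, 8.41, 8.06 and 7.68 in silenced cells at position 1584. It fell too, by 1.28 (SE 0.25, limma adjusted p 0.00621). A dimmer Shmt1 probe, well above background on 3 control arrays and on no silenced array, carries no fold. It was not past the threshold (limma adjusted p 0.357), and was past it in the lower direction without control array 3 (limma adjusted p 0.0427).

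**Figure D3:**
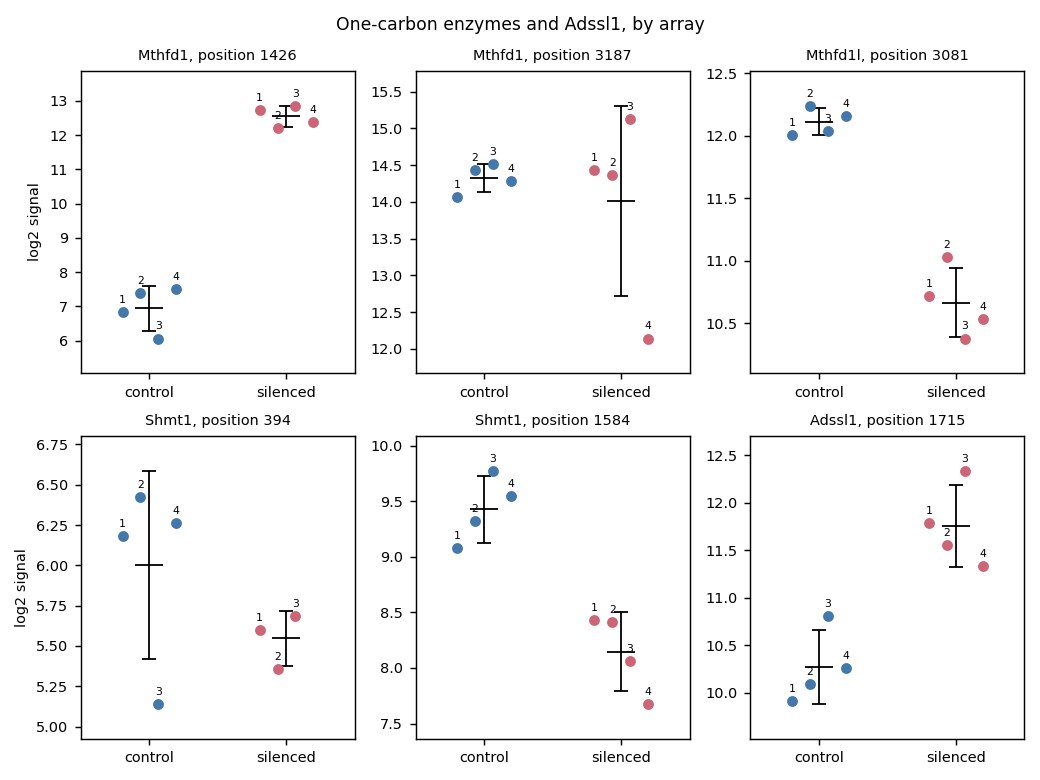
Log2 signal of the tested probes of Mthfd1, Mthfd1l and Shmt1 and of Adssl1 on the control (blue) and silenced (red) arrays, each point an array with its replicate number, with the mean and SD; the axes differ, and Shmt1 at position 394 has no value on silenced array 4. Mthfd1 at position 1426 lies at 6.07 to 7.50 in controls and 12.20 to 12.86 in silenced cells, while at position 3187 the groups overlap.

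Transcripts of liver were measured beside these values, since folate enzymes are abundant in that organ. Of 25 liver genes, each by its brightest probe, 10 were well above background on all 4 silenced arrays and 3 on all 4 control arrays, while 20 were on no control array and 8 on no silenced array. Their summed linear signal was 1452 to 2261 in controls and 6952 to 8795 in silenced cells. Alb and Mup1 were not well above background on any control array and at least 10.3-fold and 25.0-fold higher in silenced cells, and Apoa1, Apob, Apoc3, Cps1, Fga, Pck1 and Tat were not on any array. Of the 10 that could be tested, 5 were higher and none lower, where 4.79% of all tested probes were higher and 18.4% lower. Their part in the higher signals of Mthfd1 and Adssl1 was not tested.

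Of 17 genes with over 1 tested probe, 8 had both a lower probe and one not past the threshold, which is not by itself a difference between the probes. Differences between probes were therefore compared within arrays. Of 29 pairs of probes on the same strand, the probe on the 5′ side fell more in 19 (65.5%), against 64.4% of 13193 such pairs over all genes. The median difference between the changes of the 5′ and the 3′ probe was -0.32, against -0.29 over all genes. Of the 29 pairs, 11 reached an exact two-sided permutation p of 0.0286, which is 0.0753 after adjustment over the pairs, so none passed 0.05. No smaller p was possible, so a single pair could not pass after adjustment, however large its difference. Among them were Impdh2 (-0.90), Tk1 at positions 1037 and 1297 (-1.23) and Adss (-1.16, or -0.59 without control array 3), in which the 5′ probe fell more, and Gart (1.14), in which the 3′ one did.

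A polyadenylation signal (AATAAA or ATTAAA), the mark of a 3′ end, lay within some of the probes. Of 9 tested member probes with it, none was lower and 1, that of Adssl1, was higher, with a median change of 0.08. Of all 4265 tested probes with the signal, 6.64% were lower and 10.2% higher, with a median of 0.17. Of the other 49 tested member probes, 17 were lower and 1 was higher, with a median of -0.48. Of all 24384 tested probes without the signal, 20.4% were lower and 3.84% higher, with a median of -0.26. A smaller share of lower probes with the signal than without it was thus found over the whole array too. No difference between these sets of probes was tested. The upstream Impdh2 probe, and the last 30 bases of the Impdh2 and Tk1 probes that hold a signal, are shown because each gene had a lower call upstream and none at the probe with the signal. Capitals mark the signal.
Impdh2 1096, chr9:108467023-108467082: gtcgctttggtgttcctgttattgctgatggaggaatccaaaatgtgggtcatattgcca
Impdh2 1563, chr9:108467866-108467895: atgccttgaatttttcAATAAAagtttggg
Tk1 1297, chr11:117676845-117676874, minus strand: gcaaaatgaacaatATTAAAgtttactact

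**Figure D4:**
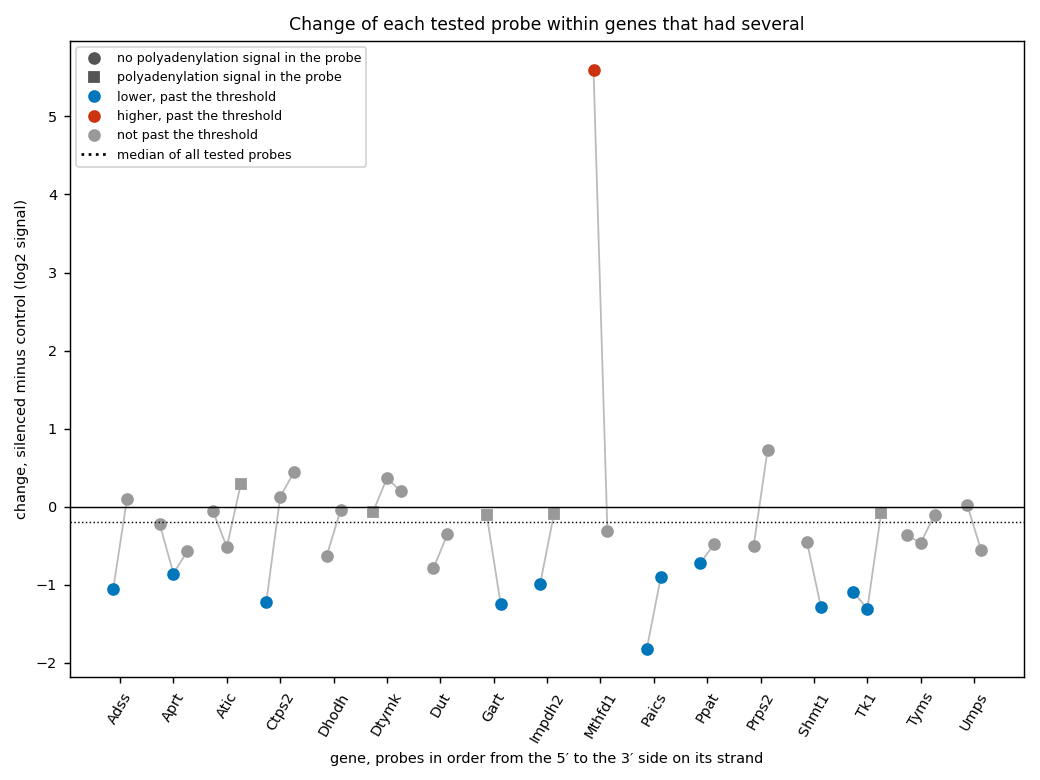
Change in log2 signal (silenced minus control) of every tested probe in the 17 genes that had several, without the Dtymk probe on the opposite strand, joined in order from the 5′ to the 3′ side, squares for probes with a polyadenylation signal; the dotted line is the median of all tested probes (-0.19). Impdh2 goes from -0.99 to -0.09, Tk1 from -1.09 and -1.31 to -0.08, and Mthfd1 from 5.60 to -0.31.

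Further genes of nucleotide and folate metabolism, 60 that are not members, were counted in the same way. Of 92 tested probes, 19 in 16 genes were lower (20.7%, against 18.4% of all) and 4 in 4 genes higher (4.35%, against 4.79%), with a median change of -0.31. Cyclic loess gave 22 lower and 17 higher, against 18.4% and 18.9% of all probes. Without silenced array 4 there were 20 lower and 14 higher (17.8% of all probes were lower and 29.9% called in either direction), and without control array 2 or 4 there were 11 lower each (10.6% and 10.4%).

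Shmt2, the mitochondrial partner of Shmt1, read 14.88, 15.04, 14.86 and 15.01 on control arrays and 13.29, 13.49, 12.90 and 12.95 on silenced arrays, a change of -1.79 (SE 0.20, limma adjusted p 0.000701). Aldh1l2, which oxidises formyl-folate in mitochondria, read 11.17, 11.11, 11.47 and 11.20 in controls and 9.36, 9.65, 9.25 and 9.01 in silenced cells, a change of -1.92 (limma adjusted p 0.000601). Neither probe had overlapping groups. A dimmer Shmt2 probe, well above background on 3 control arrays and on no silenced array, was at least 1.89-fold higher in controls (limma adjusted p 0.0627). Further Aldh1l2 probes had changes of -0.32 and -0.79. None of these was past the threshold. Both probes of Mthfd2, a mitochondrial folate enzyme, were lower (-1.37 and -0.93, limma adjusted p 0.00263 and 0.0239). Its relative Mthfd2l was lower at 1 of 3 tested probes (-1.57), and the others had changes of 0.65 and -0.18 (limma adjusted p 0.249 and 0.763). The mitochondrial folate carrier Slc25a32 was lower at its single tested probe (-0.99). These last 3 genes were chosen after their values were seen.

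The other large falls were in Ahcy, which clears S-adenosylhomocysteine (9.65, 10.39, 9.34 and 9.91 on control arrays, 7.54, 8.02, 8.30 and 5.53 on silenced arrays, change -2.48, limma adjusted p 0.0111), in Fpgs, which adds glutamate to folates, and in the AMP deaminase Ampd2. Silenced array 4 was the lowest for Ahcy, whose probe was not well above background on 1 of the silenced arrays. Fpgs read 11.02, 11.33, 11.03 and 11.21 in controls and 9.21, 9.97, 9.06 and 8.03 in silenced cells, a change of -2.08 (limma adjusted p 0.00383). Ampd2 read 10.43, 10.64, 10.46 and 10.75 in controls and 8.67, 9.02, 8.08 and 8.05 in silenced cells, a change of -2.11 (limma adjusted p 0.0009). At these probes the groups did not overlap, but probes nearer to the 3′ end had changes of -0.22 in Fpgs and 0.20 in Ampd2 (limma adjusted p 0.445 and 0.569).

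The 4 higher genes were Aldh1l1, Gldc, Ak1 and Nme4. Ak1, the adenylate kinase of muscle, read 12.92, 13.19, 13.38 and 13.14 on control arrays and 14.00, 14.14, 14.34 and 13.81 on silenced arrays, a change of 0.91 (SE 0.20, limma adjusted p 0.0111). Its groups did not overlap. Nme4, a mitochondrial nucleoside diphosphate kinase, read 10.31, 10.44, 10.87 and 10.68 in controls and 11.46, 11.40, 11.47 and 10.91 in silenced cells, a change of 0.74 (limma adjusted p 0.0381), lost when any array other than control array 3 or silenced array 4 was left out. Another Nme4 probe had a change of -1.51 (limma adjusted p 0.0588), and its control array 4 was far above the rest. Aldh1l1, a folate enzyme abundant in liver, read 5.62, 6.20, 7.24 and 6.09 in controls and 8.46, 8.52, 9.00 and 6.55 in silenced cells, a change of 1.84 (limma adjusted p 0.0327), and Gldc, of the glycine cleavage system, read 6.43, 6.25, 5.70 and 6.74 in controls and 7.81, 7.17, 8.20 and 6.73 in silenced cells, a change of 1.19 (limma adjusted p 0.0354). The groups overlapped in both, and each clearly exceeded background in 3 of 4 controls. The Aldh1l1 call was lost without any array other than control array 3 or silenced array 4, and that of Gldc without control array 1, 2 or 3 or silenced array 1 or 3. With slide row as block none of the 4 was past the threshold (limma adjusted p 0.0635 to 0.127). The summed liver transcripts given above were higher on all 4 silenced arrays, and their part in these changes was not tested.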

How the data were processed

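Total RNA of 8 C2C12 cultures (4 control, 4 Pvt1-silenced) was labelled with Cy3 and hybridised to one-colour Agilent arrays. The deposited scanner files hold spot intensity as the authors' Feature Extraction software gave it, background-subtracted. The labels name version 10.7.3.1 and the file headers 12.0.0.7. The series table, deposited with log2 values of the same arrays, was used as an alternative.

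Control spots and outlier spots were left out, and spots without positive and significant signal were set to missing, after the study's methods. Log2 intensity was quantile-normalised and spots of a probe were averaged. Testing required at least 3 of the 4 values of both groups (2 of 3 where an array was left out), which left 28649 of 56605 probes (59305 spots). Groups were compared with limma 3.58.1 in R 4.3.3 (lmFit, eBayes, with group as the only term), adjusted by Benjamini-Hochberg over all tested probes at 0.05. Differences between probes within arrays were compared by exact two-sided permutation tests. The scripts were tested on simulated data. All arrays lay on 1 slide and in 1 scan, with control arrays 1 to 3 and silenced array 1 in the upper row and the other 4 in the lower row, so that row and group overlapped in large part. The number of arrays limits the precision.

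The members, the lists of other genes and the tests were chosen with earlier results of these data known. Values on every array are given for called member probes measured on all 8 arrays, for tested probes of members whose probes differ by over 1 in log2 change, for the committed or rate-limiting enzymes Prps1, Prps2, Ppat, Impdh2, Cad, Rrm1, Rrm2 and Tyms, and, of other pathway genes, for the 5 largest called changes in each direction. A bound ("at least") compares a group's mean with the mean, over the other group's arrays, of each array's lowest signal well above background, or of the dim probe's own signal where that was higher. Probe coordinates are those of the array (mm9), and whether a probe lies in coding sequence or a UTR was not analysed here. Positions are counted on the transcript each probe was designed on, which differs between probes of some genes, among them Adss, Aprt and Tk1. Promoters were taken from RefSeq (GRCm38). Alternatives were other normalisations (75th percentile, cyclic loess), normexp background correction with an offset of 50, the series table, no masking, complete probes, a trended robust prior, slide row or replicate block, each array left out, and the methods' t-test.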

Additional observations from a re-analysis of the deposited data

Results flagged for a closer look

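Of 88 groups of 4 arrays examined for the named probes, 5 had an array apart from the other 3 by Dixon's criterion, which chance gives in about 1 in 20 groups. Control array 3 was the array apart in 3 of them and silenced array 4 in 2. The Adss probe at position 1867 read 9.29 on control array 3, against 12.02 to 12.21 on the other controls. The Ppat probe at position 3596 read 9.05 on control array 3, against 10.33 to 10.43. The dim Ctps2 probe at position 5511 read 6.19 on control array 3, against 4.85 to 5.03. On silenced array 4 the Ppat probe at position 1614 read 9.80, where the others of its group read 10.32 to 10.34, and the Nme4 probe at position 741 read 10.91, against 11.40 to 11.47.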

How the results depend on the processing

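Leaving out both silenced array 4 and control array 3 was chosen after seeing the data, and all other alternatives were planned. The share of all probes called in the same direction stands in parentheses. Against 2 higher member probes (4.79%), 13 were called with the 75th percentile shift (24.7%), 8 with cyclic loess (18.9%), 4 with normexp (5.50%), 8 with the series table (20.0%), 9 of 69 tested without masking (8.82%), 4 with the trended robust prior (6.47%), 5 with the methods' t-test unadjusted (7.79%) and 7 without both arrays (17.8%), and 2 to 6 with 1 array left out. Against 17 lower (18.4%), the percentile shift gave 11 (15.2%) and the slide row 8 (8.98%), and 1 array left out gave 9 to 18. For the other pathway genes, for which the shares of all probes are the same, against 4 higher these gave 22 (percentile shift), 17 (loess), 7 (normexp), 19 (series table), 18 (no masking), 7 (trended prior), 0 (slide row, 1.86% of all probes), 20 (both arrays out), 8 (methods' t-test unadjusted) and 1 (methods' t-test after Benjamini-Hochberg, 1.98%), and 1 to 14 with 1 array left out. Against 19 lower, the slide row gave 12, the adjusted methods' t-test 9 (9.96%), and 1 array left out 11 to 25. Without masking the 5′ probe fell more in 30 of 53 pairs (56.6%, against 56.7% of all such pairs), and with it in 19 of 29 (65.5%, against 64.4%).

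Of the probes whose values on every array are given, those whose change turned sign were not past the threshold in the reported fit. Further member probes also turned sign under some settings, Tk2 and Cmpk1 among them, and only the former probes are given here. Adss at position 1867 turned to -0.12 (slide row), -0.51 (both arrays out) and -0.60 (without control array 3), with a range of -0.60 to 0.37 with 1 array left out. Gart at 1713 turned to 0.17 (percentile shift), 0.084 (loess), 0.14 (series table and no masking), 0.0034 (slide row), 0.31 (both arrays out), 0.06 (without control array 3) and 0.13 (without silenced array 4), with a range of -0.27 to 0.13. Impdh2 at 1563 turned to 0.49, 0.11, 0.071, 0.11 and 0.082 and Tk1 at 1297 to 0.50, 0.15, 0.083, 0.11 and 0.014 (percentile shift, loess, series table, no masking, both arrays out), the 0.50 of Tk1 being past the threshold (limma adjusted p 0.0299), as was the -0.51 of Adss. Mthfd1 at 3187 turned to 0.24 (percentile shift), 0.39 (both arrays out) and 0.32 (without silenced array 4), with a range of -0.68 to 0.32. Tyms at 873 turned to 0.44, 0.10, 0.041, 0.059 and 0.17 in the same order as Tk1, and to a range of -0.28 to 0.060 with 1 array left out, the highest without silenced array 4. Tyms at 792 and Rrm2 turned to 0.035 and 0.023 with the percentile shift, and Tyms at 1979 to 0.11 with both arrays out. The cause was not tested.

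The replicate numbers did not pair the samples: same-numbered arrays deviated with correlations of -0.043, 0.189, 0.221 and 0.057, and only numbers 2 and 3 correlated best with their own. With the replicate number as a block, 2 member probes were higher and 12 lower, without the calls of Ppat at 1614, Cad, Rrm1, Nme1 and Aprt at 135, and of the other pathway genes 2 and 16. Dim probes have only a bound or no value, which limits Ctps2, Shmt1 at position 394 and the 11 member probes that could not be tested, of which 4 were positive on no array.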
